A study of Mus musculus with 6 samples.

Results

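The SLC25 family of solute carriers was followed in RAW264.7, an established line of mouse cells that resemble macrophages, with and without acoustic stimulation. Members were the rows of the expression table whose symbol begins with Slc25a and a digit, and 39 of the 16108 genes in the table met this rule. Of these, 36 passed the filter on low values (an FPKM, a read abundance scaled to transcript length and library size, of at least 0.5 in at least 3 libraries). Members were assigned to substrate classes by their textbook roles. Family proteins with other symbols, the uncoupling proteins among them, are outside the rule and are given separately.

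In the acoustics-on group, cells attached to acoustic devices were driven for 48 h at 5 kHz, with 18 V from peak to peak. In the acoustics-off group, cells on the same kind of device were kept for 48 h without the drive. Each group had 3 libraries, and no genetic change or drug is named in the labels of either. Whether the libraries of a group stem from separate cultures is not said in the labels. The p-values therefore speak of variation among these libraries, part of which may be technical. A petri-dish group was not analysed here. RAW264.7 is 1 transformed line, so the values describe that line and not primary macrophages.

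SLC25 proteins span the inner membrane of mitochondria and exchange metabolites, nucleotides, cofactors and ions between the cytosol and the matrix. They link cytosolic pathways such as fatty acid, haem and pyrimidine metabolism to oxidative metabolism in the matrix. In activated macrophages, export of citrate through this family is known to feed lipid synthesis. A few members act elsewhere, for example in peroxisomes or on the outer mitochondrial membrane.

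The libraries matched their cell label. All 8 macrophage markers examined were above 1 FPKM in every library, while 7 of 14 epithelial, fibroblast, endothelial and T cell markers were in the table and none of them reached 1 FPKM in every library, the highest value being 1.45 FPKM for the fibroblast gene Col1a2. The summed FPKM of the macrophage markers was 19779 to 26668 with acoustics on and 27935 to 30176 with acoustics off, without overlap, and Lyz2 made up most of it (16356 to 23205 FPKM with acoustics on and 23951 to 26096 FPKM with acoustics off). Also lower without overlap, acoustics on against off, were Csf1r (352.0 to 570.4 against 758.5 to 847.9 FPKM) and Itgam (60.0 to 114.6 against 140.3 to 169.9 FPKM). So were Adgre1 (115.2 to 236.2 against 244.0 to 250.5 FPKM) and Cd68 (1323 to 1574 against 1702 to 1767 FPKM). Ptprc overlapped (41.5 to 67.8 against 67.4 to 71.3 FPKM). Fcgr1 and Cd14 did not go that way, and their groups overlapped. Fcgr1 was at 25.3 to 39.2 FPKM with acoustics on and 20.5 to 26.9 FPKM with acoustics off. Cd14 was at 860.1 to 1664 FPKM with acoustics on and 1010 to 1066 FPKM with acoustics off. The part of these levels in the results was not tested. In bulk samples, fewer cells of a type and less RNA per cell cannot be told apart. Relative depths, read from the steps of low values, lay between 0.959 and 1.08. Acoustics-on replicate 1 stood apart on the first principal component (64.4% of the variance), at 58.85 against 2.54 and 4.66 for the other acoustics-on libraries and -23.5 to -19.8 for the acoustics-off libraries. Its differences from the acoustics-off mean also followed transcript length, and those of acoustics-on replicate 2 did so less strongly, as given below. The differences without acoustics-on replicate 1 are given beside many of the members and drawn for all but 1 of those tested.

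No SLC25 gene passed the test between acoustics-on and acoustics-off cells (0 of 36). Over all genes 2.07% passed (limma, Benjamini-Hochberg adjusted p under 0.05), with 1.5% higher and 0.574% lower with acoustics on, and 0 of the 36 SLC25 members passed in either direction. The lowest adjusted p among members was 0.10, for Slc25a33. An unadjusted p under 0.05 was found for 5 members, or 13.9%, against 19.7% of all genes tested. The median member had a log2 difference of 0.07, against -0.03 over all genes, and the median size of the difference, without its sign, was 0.25 for members and 0.24 for all genes. All differences were computed on log2(FPKM + 1), so those of weakly expressed genes are understated.

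On the scale of log2(FPKM + 1), the intervals of most members lay within a log2 difference of 1 in size, and those of fewer within 0.5. The 95% interval of the log2 difference lay between -1 and 1 for 32 of the 36 members and between -0.5 and 0.5 for 11. The intervals that reached beyond 1 in size were those of Slc25a33, Slc25a23, Slc25a36 and Slc25a51. The intervals take 1 variance for both groups, while the SD was larger with acoustics on for 35 of the 36 members. They may therefore be too narrow, and the counts within these bounds too high. These bounds also depend on the added 1 FPKM for weak members. For Slc25a53 the difference was -0.26 (SE 0.23), and -0.39 (SE 0.34) with 0.1 FPKM added instead. The groups did not overlap for 12 members (33.3%), with acoustics on higher in 7 and lower in 5, against 34.8% of all genes tested, 17.1% with acoustics on higher and 17.7% lower. Without acoustics-on replicate 1 they did not overlap for 15 members, against 45.7% of all genes. By the adjusted p of the authors' deposited table, 7.56% of genes passed 0.05, with 5.08% higher and 2.49% lower, and 1 of the 38 members with an adjusted p did, Slc25a33. The next lowest adjusted p-values there were just over 0.05, for Slc25a43 (0.052), Slc25a25 (0.053) and Slc25a38 (0.058). The members' shares were near or below those of all genes.

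**Figure D1:**
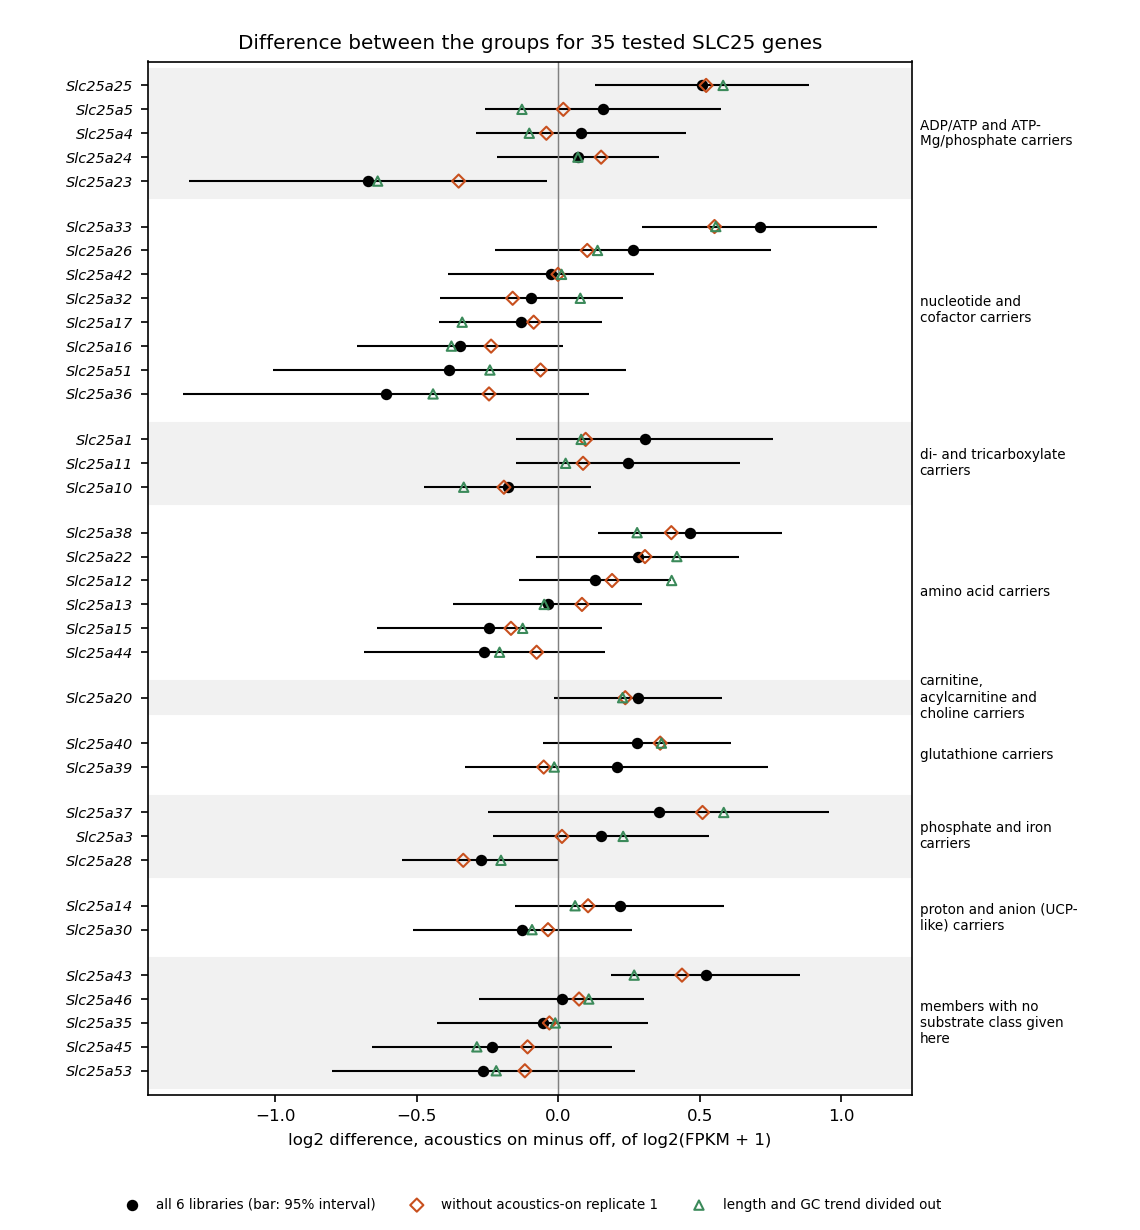
Log2 difference in log2(FPKM + 1), acoustics on minus off, for 35 of the 36 tested SLC25 genes by substrate class, with black points and 95% intervals for all 6 libraries, diamonds without acoustics-on replicate 1 and triangles with the length and GC trend of each library divided out. Black points run from -0.67 for Slc25a23 to 0.71 for Slc25a33.

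When libraries were weighted by how far they scattered, 3 members were higher with acoustics on (Slc25a33, Slc25a38 and Slc25a43) and 2 lower (Slc25a23 and Slc25a28). In that setting 16.1% of all genes passed, 9.41% higher and 6.72% lower, against 13.9% of members. Leaving out acoustics-on replicate 1 left 1 member higher (Slc25a33) and 1 lower (Slc25a28), when 7.83% of all genes passed, 4.75% higher and 3.08% lower. The promoters of these 5 genes are shown because the calls among members turn on them. Each sequence is the 250 bases before a RefSeq start site (GRCm38.p6), read 5′ to 3′ on the gene's strand, with matched motifs in capitals. The windows are chr4:149774268-149774517 on the minus strand for Slc25a33, chr9:120110132-120110381 on the plus strand for Slc25a38, chrX:36743382-36743631 on the plus strand for Slc25a43, chr17:57059864-57060113 on the minus strand for Slc25a23 (1 of its 2 starts) and chr19:43674882-43675131 on the minus strand for Slc25a28.
Slc25a33: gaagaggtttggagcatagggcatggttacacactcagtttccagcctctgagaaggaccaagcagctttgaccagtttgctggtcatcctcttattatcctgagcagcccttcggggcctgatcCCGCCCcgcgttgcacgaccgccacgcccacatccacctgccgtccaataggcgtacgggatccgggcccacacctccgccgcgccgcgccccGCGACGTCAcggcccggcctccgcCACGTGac
Slc25a38: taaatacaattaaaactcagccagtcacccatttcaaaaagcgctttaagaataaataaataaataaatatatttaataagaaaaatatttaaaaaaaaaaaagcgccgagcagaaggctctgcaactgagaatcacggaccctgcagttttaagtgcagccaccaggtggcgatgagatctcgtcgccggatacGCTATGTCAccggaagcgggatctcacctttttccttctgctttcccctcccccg
Slc25a43: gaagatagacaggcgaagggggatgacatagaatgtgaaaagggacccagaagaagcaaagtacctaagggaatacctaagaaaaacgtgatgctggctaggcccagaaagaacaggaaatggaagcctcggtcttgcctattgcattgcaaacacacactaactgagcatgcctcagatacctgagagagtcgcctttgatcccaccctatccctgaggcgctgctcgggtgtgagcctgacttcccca
Slc25a23: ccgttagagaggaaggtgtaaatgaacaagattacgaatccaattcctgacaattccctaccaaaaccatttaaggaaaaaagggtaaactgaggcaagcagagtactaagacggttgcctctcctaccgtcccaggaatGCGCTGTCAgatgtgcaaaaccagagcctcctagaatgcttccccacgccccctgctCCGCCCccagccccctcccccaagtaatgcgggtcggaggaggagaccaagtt
Slc25a28: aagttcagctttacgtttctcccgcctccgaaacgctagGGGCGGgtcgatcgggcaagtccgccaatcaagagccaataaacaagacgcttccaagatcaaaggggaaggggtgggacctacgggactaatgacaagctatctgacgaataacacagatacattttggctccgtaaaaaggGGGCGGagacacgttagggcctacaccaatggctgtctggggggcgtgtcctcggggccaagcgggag

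The motifs were searched on both strands, and the matches shown do not overlap each other. The antioxidant response element core TGACNNNGC, which NRF2 binds with small MAF proteins, matched in Slc25a33, Slc25a38 and Slc25a23 and not in the windows of Slc25a43 and Slc25a28. Slc25a33 also held the palindromic E-box CACGTG, and Slc25a33, Slc25a23 and Slc25a28 held the GC box GGGCGG, the site of SP1. Over the 40 RefSeq promoters of 31 members, 9 (22.5%) held the antioxidant core, against 11.8% of the 11173 promoters of tested genes and 10.2% of all 32851 promoters. The E-box was in 7 (17.5%), against 8.54% of promoters of tested genes and 6.02% of all. The GC box was in 29 (72.5%), against 58.0% and 32.7%. The NRF1 palindrome was in 0 of the 40, against 1.75% and 0.782%, and the composite ATF4 core TGATGNAA in 0, against 2.00% and 3.45%. A match describes letters in a window only, and was not tested.

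**Figure D2:**
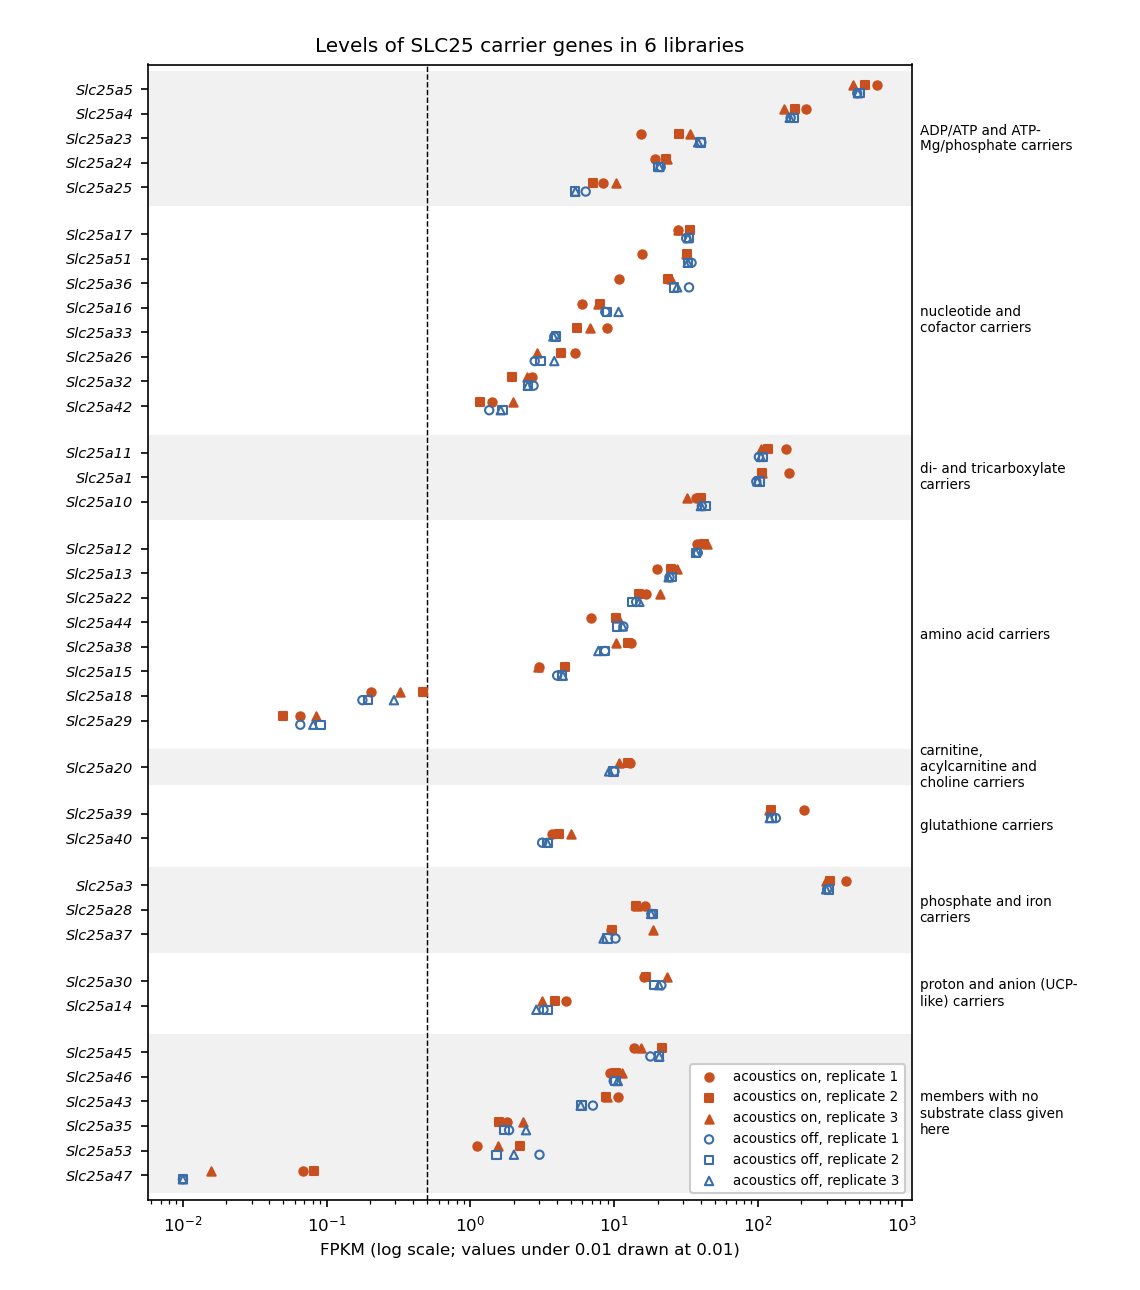
FPKM on a log axis of 38 of the 39 SLC25 genes in each library, grouped by substrate class, with acoustics-on libraries filled and acoustics-off libraries open; the dashed line marks an FPKM of 0.5. Slc25a5 is the most abundant member, and Slc25a18, Slc25a29 and Slc25a47 lie below the line.

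Among the 39 members, carriers of adenine nucleotides, phosphate, glutathione and 2-oxoglutarate were the most abundant. Ucp2, a family protein outside the rule, was higher than any of them, at 1237 to 1532 FPKM with acoustics on and 1443 to 1510 FPKM with acoustics off. The 5 most abundant members, Slc25a5, Slc25a3, Slc25a4, Slc25a39 and Slc25a11, made up 70.3% of the summed mean FPKM of the 39 members, and Slc25a5 alone 29.1%. Slc25a5, a carrier that trades matrix ATP for cytosolic ADP, had 675.2, 550.4 and 460.9 FPKM with acoustics on, against 489.8, 507.7 and 495.1 FPKM with acoustics off. The acoustics-on values lay on both sides of the narrow acoustics-off range, and the log2 difference was 0.16 (SE 0.18, limma adjusted p = 0.60), and 0.018 without acoustics-on replicate 1. With the length and GC trend divided out, Slc25a5 was lower without overlap, at 494.4 to 509.7 FPKM with acoustics on and 543.1 to 556.7 FPKM with acoustics off. That difference was -0.13 (limma adjusted p = 0.37). The FPKM of all genes summed to 1000722, 824063 and 716509 in acoustics-on replicates 1, 2 and 3, against 821818 to 840707 with acoustics off. The part of these sums was not tested. Slc25a4, its paralog with the same exchange, had 213.9, 180.1 and 152.6 FPKM with acoustics on, against 168.6, 177.7 and 166.1 FPKM with acoustics off (log2 difference 0.08, SE 0.16, limma adjusted p = 0.77). The FPKM of Slc25a5 over that of Slc25a4 was 3.16, 3.06 and 3.02 with acoustics on, against 2.91, 2.86 and 2.98 with acoustics off. This ratio was not tested. Both genes have close copies in the genome, so reads shared with pseudogenes could affect their levels.

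The ATP-Mg/phosphate carriers, which calcium regulates and which set the adenine nucleotide pool of the matrix, differed in sign. Slc25a25 had 8.29, 7.16 and 10.2 FPKM with acoustics on, against 6.33, 5.35 and 5.37 FPKM with acoustics off. All acoustics-on libraries were above all acoustics-off libraries, with a log2 difference of 0.51 (SE 0.16, 95% interval 0.13 to 0.88), but the gene did not pass (limma adjusted p = 0.17). Slc25a23 had 15.3, 28.02 and 33.7 FPKM with acoustics on, against 40.3, 39.9 and 38.3 FPKM with acoustics off. Every acoustics-on library was lower, replicate 1 by the most. Its log2 difference was -0.67 (SE 0.27, limma adjusted p = 0.23), and -0.35 without acoustics-on replicate 1 (adjusted p = 0.075). Slc25a24 was at 19.3 to 23.3 FPKM with acoustics on and 20.3 to 21.0 FPKM with acoustics off, so the groups overlapped (log2 difference 0.07, SE 0.12, limma adjusted p = 0.74). The FPKM of Slc25a23 over Slc25a25 was 1.85, 3.91 and 3.29 with acoustics on, against 6.37, 7.45 and 7.13 with acoustics off.

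Among the nucleotide and cofactor carriers, Slc25a33, which imports pyrimidine nucleotides, had the largest positive difference of all members in the fit of all 6 libraries. With the length and GC trend divided out those of Slc25a37 and Slc25a25 (0.58 each) were larger than its 0.56, and with library weights that of Slc25a38 (0.50) was larger than its 0.49. The gene (chromosome 4, 149744036 to 149774277, GRCm38) had 8.91, 5.48 and 6.77 FPKM with acoustics on, against 3.83, 3.92 and 3.77 FPKM with acoustics off. The acoustics-on libraries were all higher and more scattered. It averaged 7.05 ± 1.73 FPKM with acoustics on and 3.84 ± 0.08 FPKM with acoustics off (SD, n = 3 each), a ratio of means of 1.84. The log2 difference was 0.71 (SE 0.18, 95% interval 0.30 to 1.13, limma adjusted p = 0.10). Without acoustics-on replicate 1 it was 0.55 and passed (limma adjusted p = 0.037). With the trend divided out it did not pass (adjusted p = 0.073), nor with both steps together (0.47, adjusted p = 0.062). By the authors' deposited table, its log2 fold change was 0.88 (SE 0.24, adjusted p = 0.0062).

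Slc25a36, the other pyrimidine nucleotide carrier, had 10.8, 23.5 and 24.7 FPKM with acoustics on, against 33.1, 26.2 and 27.4 FPKM with acoustics off. The groups did not overlap, and acoustics-on replicate 1 lay far below the rest (log2 difference -0.61, SE 0.30, limma adjusted p = 0.30, and -0.24 without that library). The FPKM of Slc25a36 over Slc25a33 was 1.21, 4.29 and 3.65 with acoustics on, against 8.65, 6.66 and 7.26 with acoustics off, which was not tested. Slc25a51, the mitochondrial NAD importer, had 15.7, 31.8 and 31.5 FPKM with acoustics on, against 34.5, 32.4 and 32.5 FPKM with acoustics off. Its log2 difference of -0.38 (SE 0.26, limma adjusted p = 0.42) was -0.06 without acoustics-on replicate 1.

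Slc25a16 was at 6.01 to 7.98 FPKM with acoustics on and 8.66 to 10.7 FPKM with acoustics off, without overlap (log2 difference -0.35, SE 0.15, limma adjusted p = 0.27). A further 4 members of the class had overlapping groups and log2 differences from -0.13 to 0.27, the highest being that of Slc25a26, at 0.10 without acoustics-on replicate 1. They were Slc25a17, the peroxisomal cofactor carrier, Slc25a26 for S-adenosylmethionine, Slc25a32, known for folate and FAD, and Slc25a42 for coenzyme A. With the length and GC trend divided out, the Slc25a17 groups were apart, at 23.4 to 30.9 FPKM with acoustics on and 34.6 to 35.4 FPKM with acoustics off. The difference was then -0.34 and did not pass (limma adjusted p = 0.14).

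The di- and tricarboxylate carriers were abundant. Slc25a1, the citrate carrier whose export feeds cytosolic acetyl-CoA, had 164.6, 107.1 and 105.8 FPKM with acoustics on, against 97.3, 102.3 and 98.9 FPKM with acoustics off. The groups did not overlap, but the distance was large in acoustics-on replicate 1 only (log2 difference 0.30, SE 0.19, limma adjusted p = 0.39, and 0.10 without that library). Slc25a11, which exchanges 2-oxoglutarate for malate in the malate-aspartate shuttle, had 155.8, 118.0 and 105.5 FPKM with acoustics on, against 101.4, 108.8 and 104.8 FPKM with acoustics off (log2 difference 0.25, SE 0.17, limma adjusted p = 0.42). That difference was 0.087 without acoustics-on replicate 1 and 0.026 with the length and GC trend divided out. Slc25a10, the dicarboxylate carrier for malate and succinate, was at 32.2 to 40.3 FPKM with acoustics on and 40.0 to 43.2 FPKM with acoustics off (log2 difference -0.18, SE 0.13, limma adjusted p = 0.43). With the trend divided out, the Slc25a10 difference was -0.33 (adjusted p = 0.15). None of the 3 carriers passed the test in these settings.

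Of 8 amino acid carriers, 6 were tested. Slc25a38, which brings glycine into mitochondria for haem synthesis, had 13.1, 12.4 and 10.2 FPKM with acoustics on, against 8.62, 8.55 and 7.76 FPKM with acoustics off. All acoustics-on libraries were higher, with a log2 difference of 0.47 (SE 0.14, 95% interval 0.14 to 0.79), and the gene did not pass (limma adjusted p = 0.15, and 0.079 without acoustics-on replicate 1). With the length and GC trend divided out the difference was 0.28 (adjusted p = 0.15). Slc25a22, a glutamate carrier, was at 14.9 to 20.9 FPKM with acoustics on and 13.2 to 14.95 FPKM with acoustics off, with a small overlap (log2 difference 0.28, SE 0.15, limma adjusted p = 0.33). With the length and GC trend divided out, the Slc25a22 groups were apart, at 15.95 to 19.8 FPKM with acoustics on and 12.7 to 14.5 FPKM with acoustics off. The difference was then 0.42 and did not pass (adjusted p = 0.092). The aspartate-glutamate exchangers Slc25a12 and Slc25a13 averaged 41.1 ± 3.16 and 24.0 ± 3.71 FPKM with acoustics on, and 37.4 ± 0.60 and 24.4 ± 0.72 FPKM with acoustics off (SD, n = 3 each). Both pairs of groups overlapped (log2 differences 0.13 and -0.04, limma adjusted p = 0.51 and 0.89). With the length and GC trend divided out, Slc25a12 had 54.7, 42.6 and 39.5 FPKM with acoustics on, against 34.2, 34.4 and 33.4 FPKM with acoustics off. These corrected groups were apart, with a difference of 0.40 (adjusted p = 0.13), and of 0.27 with acoustics-on replicate 1 also left out (adjusted p = 0.051). The correction used the longest transcripts, 6351 nt for Slc25a12 and 5590 nt for Slc25a22. Normalised reads per FPKM (mean count over mean FPKM) were 96.9 and 74.0, against 141 for Slc25a24, whose longest transcript has 3431 nt. Whether the lengths used fit the expressed transcripts was not tested. Slc25a15, the ornithine carrier of the urea cycle, and Slc25a44, the carrier for branched-chain amino acids, had log2 differences of -0.24 and -0.26, with overlapping groups, and -0.17 and -0.077 without acoustics-on replicate 1. Slc25a18, a second glutamate carrier, was at 0.20 to 0.47 FPKM with acoustics on and 0.18 to 0.29 FPKM with acoustics off. Slc25a29, a carrier for basic amino acids, was under 0.1 FPKM in every library, and both were below the filter.

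The fatty acid and glutathione carriers showed no call. Slc25a20, which exchanges acylcarnitine for carnitine ahead of beta-oxidation, had 12.8, 12.6 and 10.7 FPKM with acoustics on, against 10.04, 9.88 and 9.21 FPKM with acoustics off. The groups did not overlap (log2 difference 0.28, SE 0.13, limma adjusted p = 0.27). Slc25a40, one of the mitochondrial glutathione importers, had 3.68, 4.15 and 4.98 FPKM with acoustics on, against 3.15, 3.43 and 3.40 FPKM with acoustics off. Its groups were also apart, by less than the test required (log2 difference 0.28, SE 0.14, limma adjusted p = 0.31). The paralog Slc25a39, far more abundant, had 208.2, 122.8 and 119.9 FPKM with acoustics on, against 133.0, 123.8 and 120.7 FPKM with acoustics off. Only acoustics-on replicate 1 lay outside the acoustics-off range by more than 1 FPKM (log2 difference 0.21, SE 0.23, limma adjusted p = 0.60), and the difference was -0.05 without it. Slc25a39 is also known to be regulated by protein turnover in response to glutathione, a level that transcripts do not show.

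Of the phosphate and iron carriers, Slc25a3, which imports the phosphate used by ATP synthase, had 406.9, 315.9 and 296.7 FPKM with acoustics on, against 302.6, 310.1 and 297.6 FPKM with acoustics off (log2 difference 0.15, SE 0.16, limma adjusted p = 0.59, and 0.013 without acoustics-on replicate 1). The mitoferrins, which bring iron into the matrix, had differences of opposite sign. Slc25a28 (chromosome 19, 43663801 to 43674881) had 16.4, 14.1 and 14.5 FPKM with acoustics on, against 18.1, 18.7 and 18.0 FPKM with acoustics off. Every acoustics-on library was lower, with a log2 difference of -0.27 (SE 0.12, 95% interval -0.55 to 0.004, limma adjusted p = 0.26). Without acoustics-on replicate 1 the difference was -0.34 and passed (limma adjusted p = 0.046), and so it did with the length and GC trend also divided out (-0.31, adjusted p = 0.036), a combination that was added with the values in view and in which 12.1% of all genes passed. With the trend divided out over all 6 libraries it did not pass (-0.20, adjusted p = 0.32), and the corrected groups overlapped (14.1 to 17.9 FPKM on, 17.55 to 18.3 FPKM off). The length used for Slc25a28 was that of its longest transcript, 3724 nt. It had 57.4 normalised reads per FPKM, near the 60.1 of Slc25a1, whose longest transcript has 1666 nt. Whether the length used fits the expressed transcript was not tested. Slc25a37 had 9.49, 9.69 and 18.6 FPKM with acoustics on, against 10.2, 8.99 and 8.42 FPKM with acoustics off. Acoustics-on replicate 3 was far above the other libraries, and the log2 difference was 0.35 with it (SE 0.26, limma adjusted p = 0.44) and 0.06 without it. With the length and GC trend divided out, the corrected values were 13.3, 9.88 and 16.96 FPKM with acoustics on, against 9.24, 8.37 and 7.66 FPKM with acoustics off. The corrected groups did not overlap, and the difference of 0.58 did not pass (limma adjusted p = 0.12). The FPKM of Slc25a28 over Slc25a37 was 1.73, 1.45 and 0.777 with acoustics on, against 1.78, 2.08 and 2.14 with acoustics off.

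**Figure D3:**
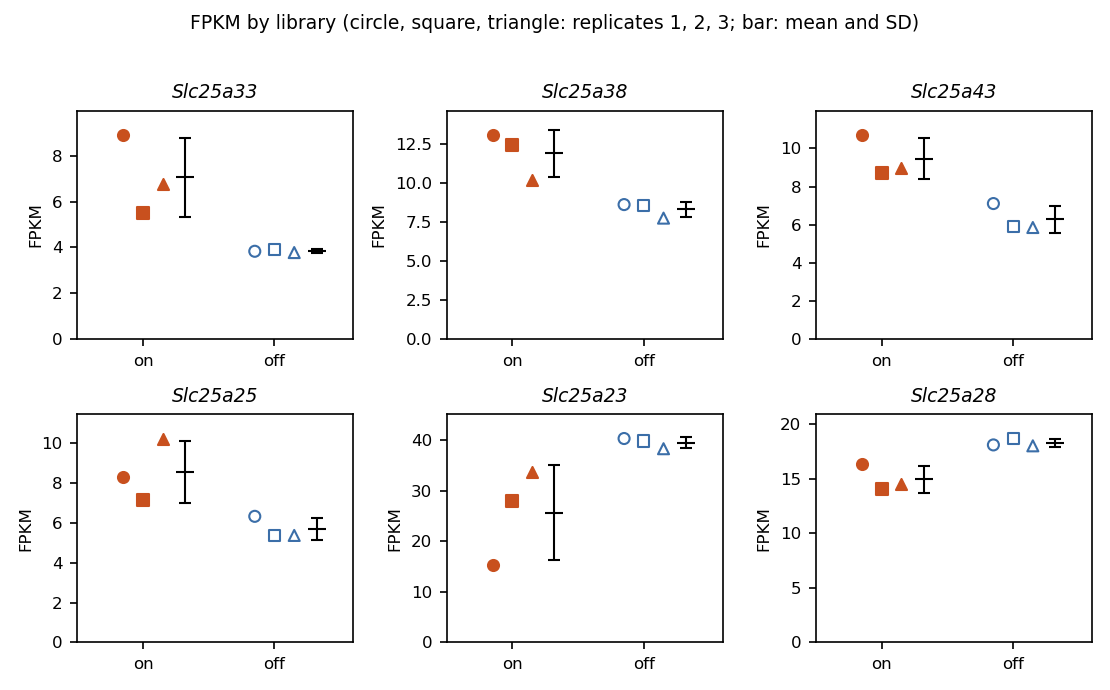
FPKM of 6 SLC25 genes in the 3 acoustics-on libraries (filled) and the 3 acoustics-off libraries (open), with the mean and SD beside each group. Acoustics-on values lie above all acoustics-off values for Slc25a33, Slc25a38, Slc25a43 and Slc25a25 and below them for Slc25a23 and Slc25a28.

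Slc25a14, a UCP-like carrier, had 4.65, 3.86 and 3.14 FPKM with acoustics on, against 3.22, 3.43 and 2.87 FPKM with acoustics off. The groups overlapped (log2 difference 0.22, SE 0.16, limma adjusted p = 0.44), and the difference was 0.11 without acoustics-on replicate 1 and 0.059 with the length and GC trend divided out. Slc25a30, of the same class, averaged 18.6 ± 3.93 FPKM with acoustics on and 20.2 ± 1.23 FPKM with acoustics off (SD, n = 3 each), also with overlap (limma adjusted p = 0.65). Slc25a43, placed in no substrate class, had 10.7, 8.71 and 8.97 FPKM with acoustics on, against 7.11, 5.91 and 5.85 FPKM with acoustics off. All acoustics-on libraries were higher, and the gene did not pass (log2 difference 0.52, SE 0.14, 95% interval 0.19 to 0.86, limma adjusted p = 0.13). With the length and GC trend divided out its difference was 0.27 (adjusted p = 0.26), and the corrected groups overlapped (7.89 to 9.71 FPKM on, 6.36 to 8.05 FPKM off). Slc25a46, an outer membrane protein that shapes mitochondria, averaged 10.4 ± 0.95 FPKM with acoustics on and 10.2 ± 0.34 FPKM with acoustics off, with a log2 difference of 0.01 (SE 0.12, 95% interval -0.28 to 0.30). Slc25a35, Slc25a45 and Slc25a53 had overlapping groups and log2 differences from -0.26 to -0.05. Slc25a47 was listed at 0 in all acoustics-off libraries and at 0.07, 0.08 and 0.02 FPKM with acoustics on, below the filter.

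Members varied more among acoustics-on than among acoustics-off libraries. The SD of log2(FPKM + 1) was larger with acoustics on for 35 of the 36 members (97.2%), with a median of 0.24 with acoustics on and 0.06 with acoustics off, and it was larger for 89.3% of all genes tested. Acoustics-on replicate 1 was the acoustics-on library farthest from the acoustics-off mean for 23 members (63.9%), against 67.3% of all genes.

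The members' differences followed transcript length in some libraries of both groups, most in acoustics-on replicate 1. Across the 36 members, the rank correlation of the difference from the acoustics-off mean with the length of the longest GENCODE transcript was -0.49, -0.35 and 0.14 in acoustics-on replicates 1, 2 and 3. Across 9942 protein-coding genes it was -0.56, -0.46 and 0.03. The acoustics-off libraries, each against the other acoustics-off libraries, gave 0.22, -0.42 and 0.12 for members, and 0.24, -0.31 and 0.04 for protein-coding genes. In acoustics-on replicate 1 the median log2 difference was 0.41 for the 18 shorter members and -0.10 for the 18 longer members, split at 3396.5 nt. In replicate 2 these medians were 0.11 and 0.03, and in replicate 3 they were -0.04 and 0.14. Members share each library, the longest transcript need not be the expressed one, and the part of length in the differences between the groups was not tested beyond the values with its trend divided out. The share of all genes whose groups were apart in corrected values is not given here, so members apart only after correction have no such share beside them.

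**Figure D4:**
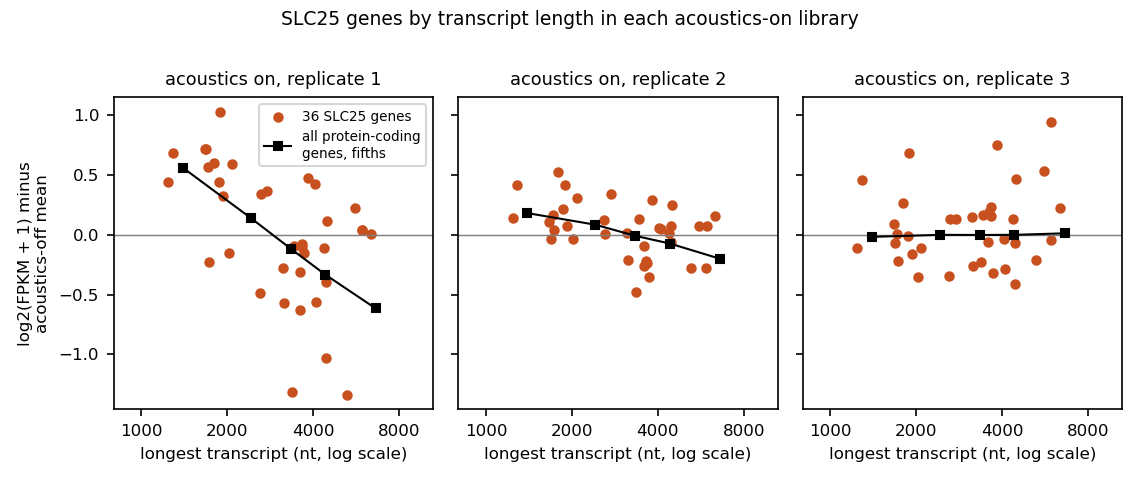
Difference of log2(FPKM + 1) from the acoustics-off mean in each acoustics-on library against the longest annotated transcript in nt (log axis), for the 36 tested SLC25 genes (orange) and the medians of protein-coding genes in 5 bins of length (black). The medians run from 0.56 for the shortest bin to -0.62 for the longest in replicate 1 and stay within 0.02 of 0 in replicate 3.

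The lists of related genes gave 1 call among 75 genes tested (1.33%), against 2.07% of all genes. Of 20 other mitochondrial transport genes tested, Abcb6 (chromosome 1, 75171717 to 75180392), an ABC transporter of porphyrins, rose, and 0 fell. It had 17.5, 10.9 and 14.1 FPKM with acoustics on, against 4.92, 5.65 and 5.75 FPKM with acoustics off (log2 difference 1.22, SE 0.18, limma adjusted p = 0.026). Its call held with the length and GC trend divided out (1.29, adjusted p = 0.021), without acoustics-on replicate 1 (1.06, adjusted p = 0.0091) and without acoustics-on replicate 2 (1.378, adjusted p = 0.015). It was lost without acoustics-on replicate 3 (1.21, adjusted p = 0.082) and without acoustics-off replicate 1, 2 or 3 (1.16, 1.24 and 1.251, adjusted p = 0.16, 0.13 and 0.14). In those fits, in the same order, 0.669%, 0.274%, 0.163% and 0.249% of all genes passed, against 2.07% with all 6 libraries. Family proteins under other symbols did not pass: Ucp2, an uncoupling protein abundant in macrophages, averaged 1405 ± 152.0 FPKM with acoustics on and 1473 ± 34.1 FPKM with acoustics off, and Mtch2, an outer membrane insertase, averaged 55.3 ± 19.99 FPKM with acoustics on and 35.6 ± 0.69 FPKM with acoustics off (SD, n = 3 each, limma adjusted p = 0.80 and 0.24). The adjusted p of Mtch2 was 0.056 without acoustics-on replicate 1, where its log2 difference was 0.29, against 0.57 with it. Of 16 import genes for carrier proteins, 0 rose and 0 fell, and the 3 acoustics-on libraries, in order of replicate number, had medians of 0.98, 0.19 and 0.02 relative to the acoustics-off mean. Among all protein-coding genes, the fifth with the shortest transcripts had medians of 0.56, 0.18 and -0.02 in the same libraries. The part of length in the medians of the import genes was not tested. The import gene with the smallest p was Timm10, an intermembrane chaperone with a longest transcript of 690 nt (log2 difference 0.64, limma adjusted p = 0.19). With the length and GC trend divided out its difference was 0.29 (adjusted p = 0.11). Of 16 mitochondrial iron, haem and iron-sulfur genes 0 passed, and Alas1, the first enzyme of haem synthesis, was at 72.6, 74.0 and 87.1 FPKM with acoustics on, against 49.1, 52.3 and 55.0 FPKM with acoustics off (log2 difference 0.57, limma adjusted p = 0.082). For Alas1 the difference was 0.62 when acoustics-on replicate 1 was left out (adjusted p = 0.020) and 0.61 after the length and GC trend was removed (adjusted p = 0.026), past the threshold in both settings, in which 7.83% and 5.11% of all genes passed. It also passed with library weights (adjusted p = 0.0064). It did not pass with the replicate block (0.17), with quantile normalization (0.11), without acoustics-on replicate 2 or 3 (0.091 and 0.10) or without an acoustics-off library (0.32 to 0.40), all of these being adjusted p-values. Without an acoustics-off library only 0.163% to 0.274% of all genes passed. Of 8 malate-aspartate and citrate shuttle enzymes, 4 carnitine shuttle enzymes and 8 amino acid enzymes, 0 passed, and the smallest p-values were those of Acaca, Cpt1c and Bcat2 (limma adjusted p = 0.26, 0.14 and 0.29).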

How the data were processed

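RNA-seq of RAW264.7 cells, 3 acoustics-on and 3 acoustics-off libraries, was analysed from gene tables. The labels' protocols name an rRNA depletion kit for the libraries; the labels also call the molecule polyA RNA, and which applies was not settled. Per the submitters' processing notes, DESeq2 1.38.2, Salmon 1.4.0, STAR 2.7.11 and Trim Galore 0.6.8 were used with GRCm38, with no roles stated. What the authors deposited for each library was a column of FPKM values. Their comparison table, per the file headers, holds a normalised count signal (the mean over libraries), log2 fold changes and their standard errors, p-values, adjusted p-values and a score per gene (its test statistic).

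No counts were given. Values under 15 normalised reads were within 0.05 of a whole number for 57.5% to 66.9% of values, so reads were not recovered. The lowest member tested had a mean of 125.6 normalised reads in the authors' deposited table and the highest 23161. limma 3.58.1 (R 4.3.3; trended, robust variance prior) was fitted to log2(FPKM + 1) over the 11664 genes that passed the filter, two-sided, on minus off, and the whole table set the adjusted p-values. The fit was also run on simulated data with independent normal noise of the same SD in both groups. The groups here differ in SD, so that run cannot speak of this setting. No value above 0 was the same in any pair of libraries.

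Length and GC content came from the longest GENCODE M21 transcript, matched by symbol for 39 of 39 members; their loess trend (span 0.5) over protein-coding genes averaging 1 FPKM or more was divided out of each library as an alternative. Motifs were searched in RefSeq promoters. Library weights were estimated gene by gene, since the default form stopped before it converged. The members, gene lists and motifs were chosen with earlier results of these data known. Values in every library were given for members called, for the 4 most abundant, for the tested member with the smallest p of each class, and for others named beside them. The values of 1 tested member are not reported here by name; it stays in the counts.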

Additional observations from a re-analysis of the deposited data

How the results depend on the processing

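In 13 of 16 alternatives, among them another pseudocount, other filters, other scalings and the length and GC trend divided out, 0 SLC25 members were called higher and 0 lower, when 0.163% to 5.11% of all genes passed. With library weights 3 were higher and 2 lower. Leaving out each library in turn gave 0 to 1 higher and 0 to 1 lower, the calls being Slc25a33 and Slc25a28 without acoustics-on replicate 1. With that library left out and the trend divided out, an alternative chosen after seeing the data, 0 were higher and 1 lower. The cause of these changes was not tested. With 3 libraries a group, the width of the intervals given limits what could be detected.

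The replicate block gave 0 calls among members, and 1.53% of all genes passed. Same-numbered libraries correlated at -0.073, -0.020 and -0.0039 in their deviations from the group means, and 0 of 3 acoustics-on libraries correlated best with its own number, so the numbers were not taken to pair the libraries.

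The sign of the difference held for 24 of 36 members in all 16 alternatives. With the trend divided out it turned for Slc25a4 (-0.10), Slc25a5 (-0.13), Slc25a39 (-0.014), Slc25a32 (0.078) and Slc25a42 (0.012), and with quantile normalization for Slc25a4 (-0.066). With library weights it turned for Slc25a13 (0.025) and Slc25a45 (0.0096). With the trend divided out and acoustics-on replicate 1 left out it turned for Slc25a3 (-0.014), Slc25a4 (-0.15), Slc25a5 (-0.13), Slc25a11 (-0.029), Slc25a14 (-0.0022), Slc25a39 (-0.14), Slc25a13 (0.028) and Slc25a42 (0.022). Leaving out 1 library at a time, the difference ranged from -0.042 to 0.20 for Slc25a4, -0.13 to 0.084 for Slc25a13, -0.16 to 0.045 for Slc25a35, -0.052 to 0.34 for Slc25a39, -0.15 to 0.078 for Slc25a42 and -0.047 to 0.073 for Slc25a46.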
